A study of Mus musculus with 16 samples.

Results

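The glucocorticoid receptor gene Nr3c1, 7 genes that glucocorticoid hormones are known to switch on (Fkbp5, Tsc22d3, Sgk1, Klf9, Klf15, Zbtb16 and Cebpd) and the metallothionein genes Mt1 and Mt2 were followed across 16 mice in the gastrocnemius, the large calf muscle. The 10 genes were chosen by name and each was read from the probe sets that the platform annotation gives to that gene alone. Each had exactly 1 such probe set, so no choice between probe sets was needed. All 10 lay above their array's median in at least 8 of 16 mice, the condition for testing, and so were among the 13592 genes tested of 22151 with a probe set. All mice were male FVB/n animals, 16 weeks old at death, homozygous for floxed Foxo1, Foxo3 and Foxo4, which Cre can remove. From 7 to 8 weeks of age all ate, for 8 weeks, a diet whose protein share was 16.4%, with 58% as fat and 25.5% as carbohydrate. The deletion group (n = 8, genotype Mx1-Cre+;FoxO1,3,4L/L) carried the recombinase Cre under the interferon-responsive Mx1 promoter, and the control group (n = 8, MxCre-;FoxO1,3,4L/L) were littermates with no Cre, which the labels call wild type. The interferon inducer polyinosine:cytidine was injected 3 times when the mice were 4 to 5 weeks old. The labels call the deletion endothelial, and whether Mx1-Cre acted in other cells as well was not analysed here. Every deletion mouse and no control carried Cre, so effects of Cre and of the deletion cannot be told apart. In whole muscle, a change in the share of a cell type and a change of RNA per cell cannot be told apart either.

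Glucocorticoids are steroid hormones that the adrenal gland releases in a daily rhythm and under stress. They bind the receptor encoded by Nr3c1 in the cytoplasm, where it is held by heat shock proteins, and the receptor then enters the nucleus and binds DNA at paired hexamers. In skeletal muscle the hormone promotes protein breakdown and amino acid use, and FoxO1 is itself a known target and partner of the receptor there. Metallothioneins are small cysteine-rich proteins that bind zinc and copper. Their genes answer to metals through the zinc-sensing factor MTF-1 and also to glucocorticoids and inflammatory cytokines.

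RefSeq promoter windows of GRCm38.p6, each running from 250 bases before an annotated start to 50 after it, were found for 7 of the 10 genes, 14 windows in all. They were searched on both strands for the receptor's palindrome (AGAACA, any 3 bases, then TGTTCT), for the core of the metal response element bound by MTF-1 (TGCACNC or TGCGCNC) and for a forkhead core of the FoxO factors (GTAAACA). Nr3c1, Zbtb16 and Cebpd had no window and were not searched. The palindrome was present in 1 of the 6 windows of Sgk1, beginning 189 bases before the start, and in no other of the 14 windows. Of all 32851 windows 3 (0.00913%) held it. Its single hexamer TGTTCT was searched as well. The hexamer was present in windows of Tsc22d3 and Sgk1 and in none of Fkbp5, Klf9, Klf15, Mt1 or Mt2, and 19.0% of all windows held it. Metal response cores were present 3 times in the window of Mt1 and 4 times in that of Mt2, and 7.11% of all windows held 2 or more. A single core was present in the window of Klf15, 169 bases before the start, and in 1 window of Sgk1, 12 bases after it, and 25.7% of all windows held at least 1. The forkhead core was found 100 bases before the start of Klf9, and 3.65% of all windows held it. The 3 sequences are shown because they hold matches to the palindrome or to the metal response core. They are the 250 bases before the start, 5′ to 3′, all on the plus strand, with the palindrome (Sgk1) or the metal response cores (Mt1 and Mt2) in capitals. They lie at chr10:21993640-21993889 (Sgk1), chr8:94178839-94179088 (Mt1) and chr8:94172368-94172617 (Mt2).
Sgk1: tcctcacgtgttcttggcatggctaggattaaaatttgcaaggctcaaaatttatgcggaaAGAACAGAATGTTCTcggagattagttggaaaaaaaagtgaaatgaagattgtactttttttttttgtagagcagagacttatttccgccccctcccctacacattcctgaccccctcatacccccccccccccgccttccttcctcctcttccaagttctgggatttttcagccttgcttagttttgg
Mt1: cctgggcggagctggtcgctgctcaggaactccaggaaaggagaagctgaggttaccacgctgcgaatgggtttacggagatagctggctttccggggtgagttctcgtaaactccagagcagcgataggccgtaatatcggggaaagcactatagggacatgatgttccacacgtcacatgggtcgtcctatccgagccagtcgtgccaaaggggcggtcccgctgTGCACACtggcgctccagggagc
Mt2: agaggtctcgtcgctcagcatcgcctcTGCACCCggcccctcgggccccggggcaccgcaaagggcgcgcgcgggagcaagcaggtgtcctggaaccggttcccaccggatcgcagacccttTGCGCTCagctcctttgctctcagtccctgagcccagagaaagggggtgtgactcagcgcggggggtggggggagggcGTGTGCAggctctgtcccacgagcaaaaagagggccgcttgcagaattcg
In these windows 1 of the Mt1 cores and 3 of the Mt2 cores lie before the start. The other Mt1 cores begin 3 and 21 bases after it, and the remaining Mt2 core 5 bases after it. Such matches describe letters in these windows and show no binding. Mt1 and Mt2 lie near each other on chromosome 8, and how far their probes can read each other's transcripts was not analysed here.

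Array medians lay between 4.43 and 4.61 log2 units and correlations between arrays between 0.958 and 0.982. Fast fibre markers averaged 12.56 to 12.73 in all 16 mice, as the tissue label implies. Foxo1 differed by 0.07 (SE 0.12), Foxo3 by 0.50 (SE 0.14) and Foxo4 by -0.24 (SE 0.10) between deletion and control, with limma adjusted p-values of 0.804, 0.0763 and 0.236. The position of these probe sets relative to the floxed exons was not analysed here, so they do not check the deletion. Of the marker lists, 7 of 10 endothelial genes passed the limma test as higher with deletion. So did 1 of 9 macrophage, 1 of 3 neutrophil and 1 of 8 adipocyte genes. As lower with deletion, 2 of 9 tendon and fibroblast genes passed. Of 11 hepatocyte, 6 Schwann cell, 10 fast fibre and 7 slow fibre genes 0 passed. Over all genes tested 1.52% passed as higher and 0.302% as lower. At an unadjusted limma p under 0.05 the endothelial, macrophage, neutrophil, adipocyte and tendon lists had 9, 5, 3, 2 and 6 genes. The last 4 lists had 0, 2, 0 and 0, beside 17.3% of all genes. Differences above 0 were 10 of 10 endothelial, 8 of 9 macrophage, 3 of 3 neutrophil, 7 of 8 adipocyte and 2 of 9 tendon genes. For the last 4 lists they were 11 of 11, 6 of 6, 7 of 10 and 7 of 7, beside 6820 of 13592 over all genes.

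Deletion of the FoxO genes was not accompanied by a shift of the glucocorticoid genes or the metallothioneins that passed the test. By limma with Benjamini-Hochberg adjustment over all genes, 0 of the 10 members passed at an adjusted p under 0.05 and 0 had an unadjusted p under 0.05, against 1.82% and 17.3% of all genes tested. Of all genes 1.52% rose and 0.302% fell. The median difference of the 10 was 0.05 log2 units, beside 0.00 over all genes, and 5 of the 10 differences were above 0. The widest differences were those of Mt2 (0.59, 95% interval -0.13 to 1.31) and Mt1 (0.41, -0.03 to 0.86). These intervals include rises of over 1 log2 unit for Mt2 as well as no change.

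**Figure D1:**
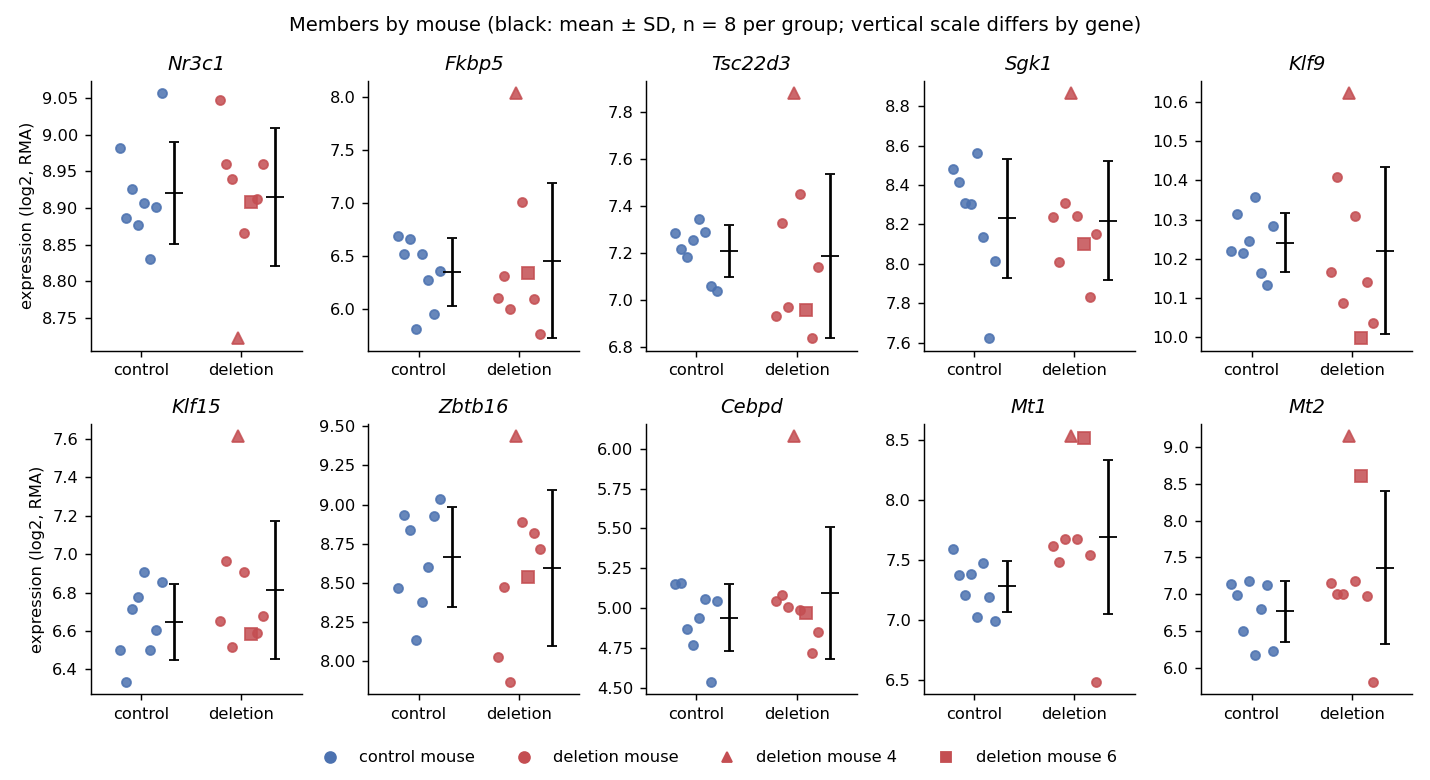
Expression of the 10 members (log2, RMA) in each of 8 control and 8 deletion mice, with the mean and SD of each group in black; the vertical scale differs by gene. Deletion mouse 4 (triangle) was the highest of the 16 mice for 9 of the 10 genes and the lowest for Nr3c1, and deletion mouse 6 (square) was the next highest for Mt1 and Mt2.

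The receptor gene was the steadiest member. Nr3c1 ran from 8.83 to 9.06 with a median of 8.90 in the controls and from 8.72 to 9.05 with a median of 8.93 in the deletion mice. The groups overlapped almost fully, and the whole range over 16 mice was 1.26-fold. The difference was -0.01 log2 units (SE 0.06, limma adjusted p = 0.970, exact permutation p = 0.887).

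Among the targets, Fkbp5 encodes a co-chaperone that binds the receptor complex and lowers its affinity for hormone, a feedback arm of the pathway. It ran from 5.81 to 6.69 with a median of 6.44 in the controls and from 5.76 to 8.04 with a median of 6.21 in the deletion mice. Apart from mouse 4 at 8.04 and mouse 5 at 7.01, the deletion mice lay inside or just under the control range. The group difference was 0.11 (SE 0.25, limma adjusted p = 0.870), and it turned to -0.12 without deletion mouse 4. Tsc22d3 encodes GILZ, a leucine zipper protein that carries part of the hormone's anti-inflammatory action. It ran from 7.04 to 7.34 with a median of 7.24 in the controls and from 6.84 to 7.88 with a median of 7.05 in the deletion mice. The deletion mice spread to both sides of the controls, with 2 above and 4 below all of them. The difference was -0.02 (SE 0.12, limma adjusted p = 0.947), and -0.12 without deletion mouse 4. Sgk1, a kinase of ion transport and cell survival that resembles AKT, ran from 7.62 to 8.56 (median 8.31) in the controls and from 7.83 to 8.87 (median 8.20) in the deletion mice. Apart from deletion mouse 4 at 8.87, every deletion mouse lay inside the control range. The Sgk1 difference was -0.01 (SE 0.14, limma adjusted p = 0.977).

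The transcription factor genes showed the same overlap. Klf9 and Klf15 encode Kruppel-like zinc finger factors, of which Klf15 drives branched-chain amino acid catabolism in muscle. Klf9 ran from 10.13 to 10.36 (median 10.23) in the controls and from 9.997 to 10.62 (median 10.15) in the deletion mice. Klf15 ran from 6.34 to 6.91 (median 6.66) and from 6.52 to 7.61 (median 6.67). For Klf9 2 deletion mice lay above and 3 below all controls, and for Klf15 3 lay above. Neither difference passed, at -0.02 (SE 0.08, limma adjusted p = 0.926) for Klf9 and 0.16 (SE 0.13, limma adjusted p = 0.553) for Klf15. Zbtb16 encodes the zinc finger repressor PLZF and ran from 8.13 to 9.04 (median 8.72) in the controls and from 7.87 to 9.44 (median 8.63) in the deletion mice. Cebpd, a basic leucine zipper factor that inflammatory cytokines induce as well, ran from 4.54 to 5.16 (median 4.99) and from 4.72 to 6.08 (median 5.00). Cebpd was dim, close to the array medians, and lay above its array's median in 15 of 16 mice. The differences were -0.07 (SE 0.19, limma adjusted p = 0.887) for Zbtb16 and 0.15 (SE 0.15, limma adjusted p = 0.641) for Cebpd. Without deletion mouse 4 the difference was 0.0109 for Cebpd and 0.05 for Klf15.

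The metallothioneins were on average higher with deletion, but neither difference passed the test against the spread between mice. Mt1 ran from 6.99 to 7.59 with a median of 7.29 in the controls and from 6.49 to 8.53 with a median of 7.65 in the deletion mice. Above all controls lay 5 of 8 deletion mice, and deletion mouse 8 lay below all of them. The difference of 0.41 (SE 0.21) had a limma adjusted p of 0.324 and an exact permutation p of 0.118. Mt2 ran from 6.18 to 7.18 with a median of 6.90 in the controls and from 5.82 to 9.14 with a median of 7.08 in the deletion mice. Only deletion mice 4 and 6, at 9.14 and 8.60, lay above all controls, and mouse 8 at 5.82 was again the lowest of the 16. The difference of 0.59 (SE 0.34) had a limma adjusted p of 0.386 and an exact permutation p of 0.173. Single mice moved these values. Without deletion mouse 4 the Mt2 difference was 0.34. Without deletion mouse 8 the differences were 0.58 for Mt1 (limma adjusted p = 0.0435) and 0.81 for Mt2 (limma adjusted p = 0.131), so that Mt1 passed, as did 5.00% of all genes in that fit. The mean of the 6 tested Schwann cell markers was 0.52 higher with deletion. With it as a covariate the differences were 0.10 for Mt1 (SE 0.19, limma adjusted p = 0.906) and 0.13 for Mt2 (SE 0.33, limma adjusted p = 0.937), and the part of Schwann cell RNA in them was not tested further. Without deletion mice 4 and 6, a setting chosen after the data were seen, the differences were 0.13 and 0.09.

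**Figure D2:**
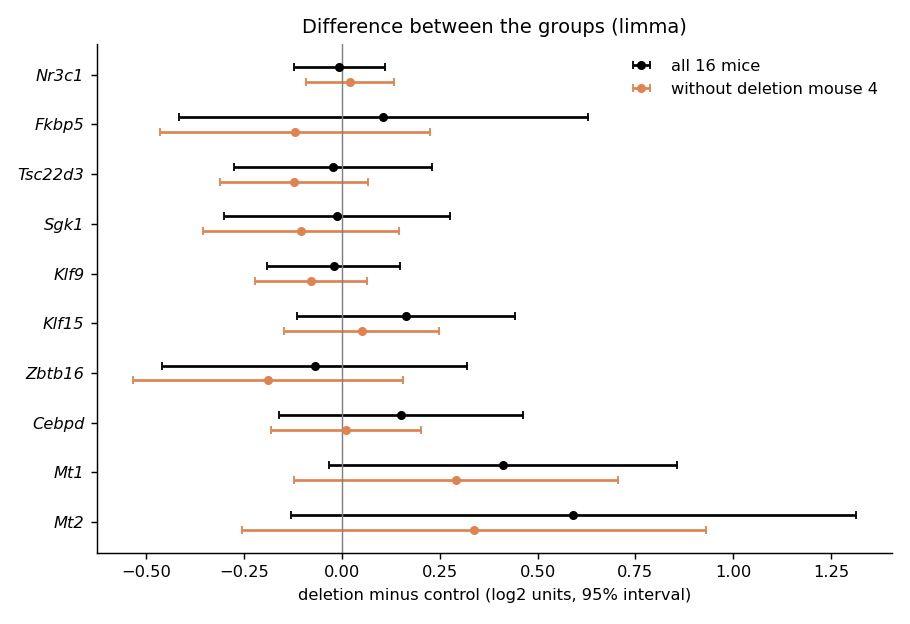
Difference between deletion and control for each member (log2 units, limma, bars are 95% intervals) with all 16 mice in black and without deletion mouse 4 in orange. Every black interval includes 0, and leaving out deletion mouse 4 lowered the difference of all members except Nr3c1.

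The most marked pattern was that of 1 mouse of the deletion group. Deletion mouse 4 had the highest value of all 16 mice in 9 of the 10 members, all 7 targets and both metallothioneins, and the lowest in the receptor gene Nr3c1 (8.72). Over all genes tested this mouse was the highest in 6.35% and the lowest in 7.78%. Its Fkbp5 stood 1.93 log2 units above the median of the other deletion mice, a 3.82-fold distance, and its Mt2 stood 2.13 above it, 4.37-fold. The distance was 1.09 for Cebpd, 0.96 for Klf15, 0.91 for Tsc22d3 and Mt1, 0.90 for Zbtb16, 0.71 for Sgk1 and 0.48 for Klf9, and -0.22 for Nr3c1. For Mt1 deletion mouse 6 read almost as high, 8.52 beside 8.53 in deletion mouse 4. No mouse apart from deletion mouse 4 was highest in more than 1 member. Deletion mouse 8 was the lowest in 3, Fkbp5, Mt1 and Mt2.

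**Figure D3:**
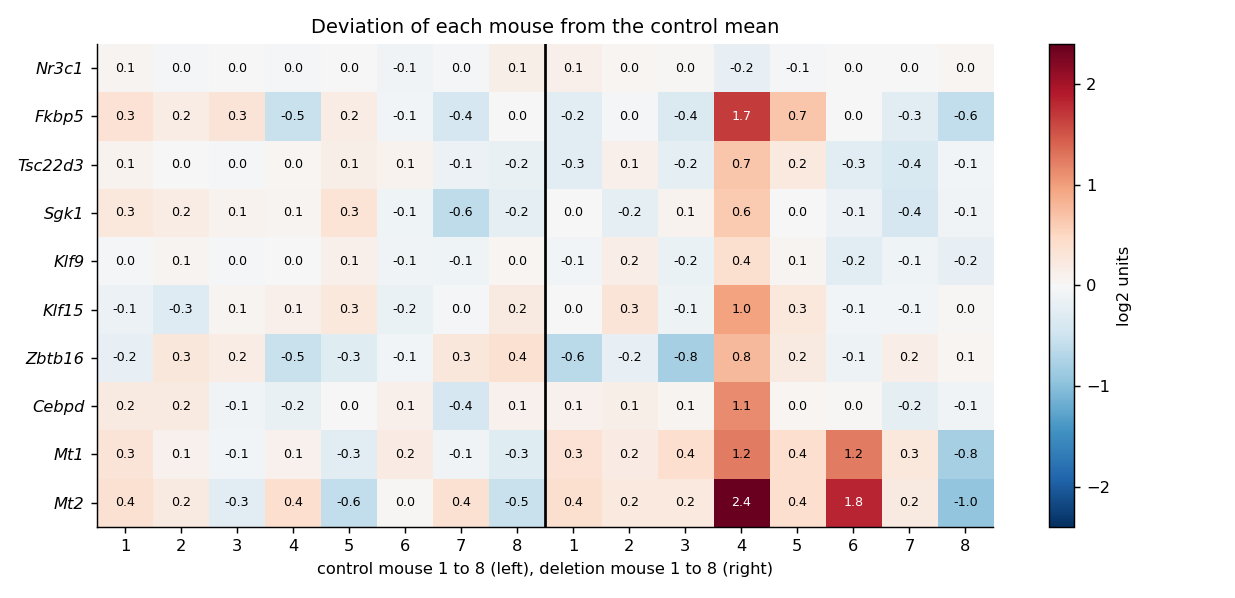
Each member in each mouse as the deviation from the control mean (log2 units; red above, blue below), controls on the left and deletion mice on the right. The column of deletion mouse 4 is red for all members except Nr3c1, and in that of deletion mouse 6 Mt1 and Mt2 are red.

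Other genes moved with this mouse too. Deletion mouse 4 had the highest mean of the 11 tested hepatocyte markers, 8.06 against at most 7.67 in the others, and it was the highest mouse for 8 of the 11. Over these markers the controls ranged from 4.84 to 7.58 and the deletion mice from 4.94 to 8.06. Alb, the albumin gene of liver, read 11.61 in it. In the other 5 mice with Alb above 10, Fkbp5 ran from 5.95 to 7.01, Tsc22d3 from 6.93 to 7.45, Cebpd from 4.54 to 5.16 and Mt2 from 7.00 to 7.18. In the 10 mice with less Alb, Fkbp5 ran from 5.76 to 6.69, Tsc22d3 from 6.84 to 7.34, Cebpd from 4.72 to 5.15 and Mt2 from 5.82 to 8.60, and the part of liver RNA in the values of deletion mouse 4 was not tested. The Schwann cell marker mean was 7.14 in deletion mouse 4 and 7.15 in deletion mouse 6. It was 6.95 and 7.13 in deletion mice 2 and 7, whose Mt2 read 7.00 and 6.98. The clock output gene Dbp was lower in deletion mouse 4 (7.96) than in any other mouse, and its difference to the clock activator Arntl was 0.92 there and 1.05 to 2.26 in the other 15. The time of day at death is not given in the sources used here, and its part in these values was not tested.

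Across mice, the 45 pairs of members were correlated after each group's mean had been removed. Mt1 and Mt2 followed each other most closely, with r = 0.94 (permutation p = 6e-05, adjusted over 45 pairs 0.0027) and rho = 0.89 (permutation p = 2e-05, adjusted 9e-04) over 16 mice. Without the 2 mice farthest from the median of Mt1 r was 0.90. It was 0.77 among the controls (exact permutation p = 0.0317) and 0.97 among the deletion mice (exact permutation p = 7.44e-04), with adjusted values of 0.148 and 0.0662 over the 90 tests of both groups. The sign was the same in both groups.

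Of the 21 pairs among the 7 targets, all 21 correlations were above 0, with a median r of 0.68, and 11 had an adjusted permutation p under 0.05. By ranks 0 of these 21 passed. Without deletion mouse 4 the median was 0.35 and 0 passed. Of all 45 pairs 13 passed, and leaving out control mouse 7 left 2, deletion mouse 2 left 8, and deletion mouse 4 or 5 left 1. Fkbp5 and Tsc22d3 had r = 0.81 (permutation p = 0.00596, adjusted 0.0298) and rho = 0.58 (permutation p = 0.0296, adjusted 0.147). Without the 2 mice farthest from the median of Fkbp5, deletion mice 4 and 5, r was 0.42, so the relation rests on those mice. Klf9 and Klf15 had r = 0.82 (permutation p = 0.00127, adjusted 0.0286) and rho = 0.67 (permutation p = 0.0072, adjusted 0.0701), and r = 0.59 without deletion mice 2 and 4. Within a single group 0 of the 90 tests passed after adjustment, while 4 of 45 pairs in the controls and 21 of 45 in the deletion mice had an exact permutation p under 0.05 before it. Among the controls alone the median r of the 21 target pairs was 0.28, and 13 of the 21 were above 0.

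All 9 correlations of Nr3c1 with another member were below 0, with a median of -0.47, and that with Tsc22d3 passed (r = -0.69, permutation p = 0.0101, adjusted 0.0349; rho = -0.51, permutation p = 0.0494, adjusted 0.149). Without control mouse 8 and deletion mouse 4, the farthest from the median of Nr3c1, that r was -0.37. The median over the 9 pairs was -0.08 without deletion mouse 4. For the 14 pairs of a metallothionein with a target the median r was 0.35, 0 passed, and without deletion mouse 4 the median was -0.11.

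**Figure D4:**
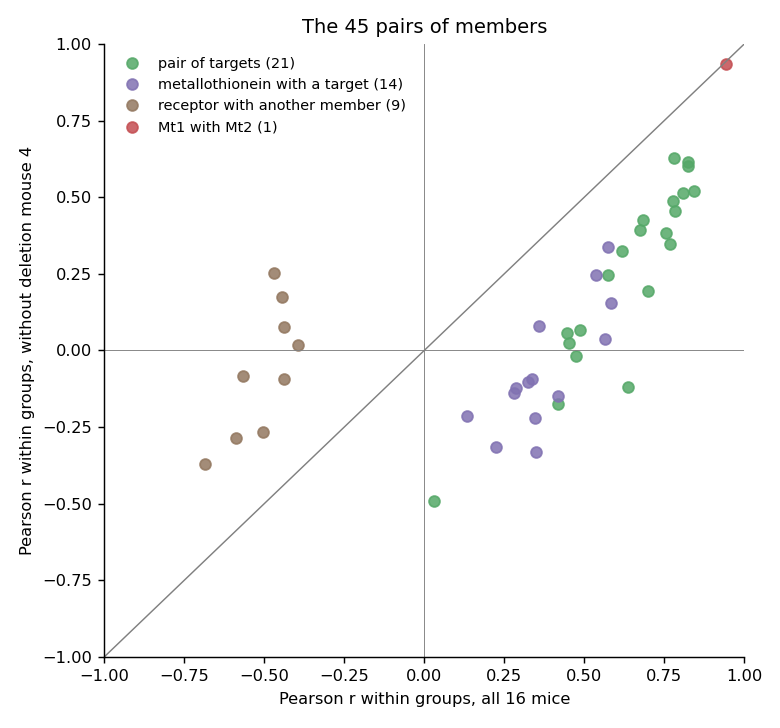
Pearson r of each of the 45 pairs of members after removal of the group means, with all 16 mice (horizontal) and without deletion mouse 4 (vertical), coloured by kind of pair; the diagonal marks equal values. Mt1 with Mt2 stays on the diagonal at 0.94, while the pairs of targets fall from a median of 0.68 to 0.35 and the receptor pairs move towards 0.

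The targeted genes were set against the members in the same way, with Alb and the difference of Dbp and Arntl, in 50 tests. Fkbp5 followed Foxo1, with r = 0.90 (permutation p = 1.7e-04, adjusted over 50 tests 0.0085) and rho = 0.86 (permutation p = 1e-04, adjusted 0.005) over 16 mice. Without the 2 mice farthest from the median of Foxo1 r was 0.83. Without deletion mouse 4 it was 0.77 and no longer passed (permutation p = 0.00349, adjusted 0.0993). Among the controls, which keep their FoxO genes, r was 0.74 (exact permutation p = 0.0391, adjusted over 100 tests 0.209), and among the deletion mice 0.95 (exact permutation p = 0.00236, adjusted 0.0785). Foxo1 itself read 8.23 in deletion mouse 4 and at most 7.41 elsewhere. Tsc22d3 (r = 0.85) and Klf9 (r = 0.82) also passed with Foxo1 (permutation p = 0.00256 and 0.003, both adjusted 0.0406; rho = 0.75 and 0.79, adjusted 0.0256 and 0.0125). Without the 2 farthest mice r was 0.64 for Tsc22d3 and 0.62 for Klf9. Cebpd had a higher r with Foxo1 than either, 0.88, which did not pass (permutation p = 0.0055, adjusted 0.055), while its rho of 0.73 did (permutation p = 0.00136, adjusted 0.0227). For Cebpd r was 0.70 without the 2 farthest mice and 0.41 without deletion mouse 4. Mt2 followed Foxo3 with r = 0.81 (permutation p = 0.00325, adjusted 0.0406) but rho = 0.63 did not pass (permutation p = 0.0131, adjusted 0.0994), and r was 0.52 without the 2 farthest mice. For that pair r was -0.05 among the controls (exact permutation p = 0.902) and 0.95 among the deletion mice (exact permutation p = 9.18e-04, adjusted over 100 tests 0.0769). Neither Alb (r from -0.12 to 0.51) nor the clock difference (r from -0.55 to 0.43) passed with any member. Without deletion mouse 4, 0 of the 50 passed.

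**Figure D5:**
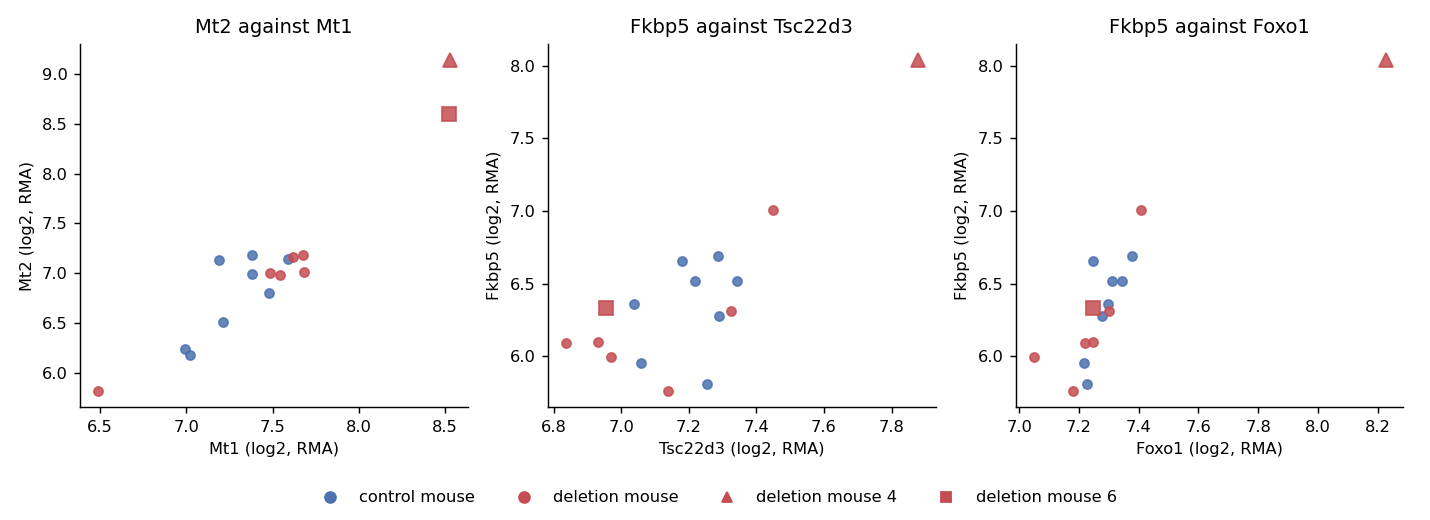
Expression (log2, RMA) of Mt2 against Mt1, of Fkbp5 against Tsc22d3 and of Fkbp5 against Foxo1, 1 point per mouse, controls in blue and deletion mice in red. Higher Mt1 goes with higher Mt2 over the whole range, whereas deletion mouse 4 (triangle) stands far from the rest in the panels with Fkbp5.

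The genes outside the set whose values were most like those of Fkbp5 over the 16 mice, by Pearson r with group means removed, were Foxo1 (0.90), Arrdc2 (0.90), Pithd1 (0.89), Cd24a (0.89) and Glul (0.87). Glul encodes glutamine synthetase, a known glucocorticoid target of muscle, and Arrdc2 encodes an arrestin-domain protein. Without deletion mouse 4 these values were 0.77, 0.78, 0.73, 0.67 and 0.67. None of the 5 differed between the groups at a limma adjusted p under 0.05. Most like Mt2 were Gda (0.90), Brpf3 (0.90), Trim59 (0.89), Zc3hav1 (0.89) and Slc39a14 (0.87), and without deletion mouse 4 they stood at 0.82, 0.87, 0.81, 0.83 and 0.78. Slc39a14 encodes ZIP14, a zinc importer. Of these, Trim59 rose with deletion, by 1.79 (SE 0.39, limma adjusted p = 0.0253), and the others did not pass. These genes were taken as the most alike of all tested, so their values are a description only.

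Of 32 other glucocorticoid targets tested, 0 passed in either direction by limma, and 10 had an unadjusted p under 0.05, beside 17.3% of all genes. Of their differences 23 of 32 were above 0, beside 6820 of 13592 over all genes. Their median difference was 0.10, beside 0.00 over all genes. The smallest p-values belonged to Tgm2, a transglutaminase (0.49, SE 0.14, limma adjusted p = 0.0808), and Ddit4, an inhibitor of mTOR complex 1 (0.79, SE 0.23, limma adjusted p = 0.0877), on the higher side, each with 6 of 8 deletion mice above all controls. On the lower side they were the atrophy ligase Trim63 (-0.29, SE 0.11, limma adjusted p = 0.193) and Arrdc3 (-0.49, SE 0.19, limma adjusted p = 0.197). Deletion mouse 4 was the highest of 16 mice for 16 of the 32 genes (50%), beside 6.35% of all genes, and the median distance to the other deletion mice was 0.53, beside -0.03. Arrdc2 read 8.08 in it and at most 7.11 elsewhere, Ddit4 8.40 and at most 7.59, Glul 11.34 and at most 10.65, and Per1, a clock gene with direct receptor input, 8.33 and at most 8.27. Pck1 and Angptl4, which liver expresses as well, were also among the 16. Some of the 16 were near ties. Hif3a read 4.9059 in deletion mouse 4 and at most 4.9034 elsewhere, and Nfkbia 8.0075 and at most 8.0016. Lpin1 read 10.0409 and at most 10.0007, Pdk4 12.4152 and at most 12.3701, and Errfi1 8.578 and at most 8.5063.

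Of 22 tested genes for receptor chaperones, cofactors and hormone conversion 0 passed by limma. An unadjusted p under 0.05 was held by 3 of the 22, beside 17.3% of all genes. Their median difference was -0.06. The chaperone genes Fkbp4 (-0.18, SE 0.07, limma adjusted p = 0.214) and St13 (-0.16, SE 0.06, limma adjusted p = 0.217) had the smallest p-values on the lower side. On the higher side they were the coactivator Ncoa2 (0.05, SE 0.08, limma adjusted p = 0.774) and Hsd11b1, which regenerates active hormone (0.08, SE 0.12, limma adjusted p = 0.781). Deletion mouse 4 was the highest for 1 of the 22 genes (4.55%), beside 6.35% of all genes.

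Among 27 zinc and copper genes 0 passed by limma and 3 had an unadjusted p under 0.05, beside 17.3% of all genes. Their median difference was 0.07. Hmox1, haem oxygenase, differed by 0.77 (SE 0.26, limma adjusted p = 0.144) and the copper pump gene Atp7a by 0.21 (SE 0.07, limma adjusted p = 0.153). The zinc transporter genes Slc30a9 (-0.16, SE 0.07, limma adjusted p = 0.222) and Slc30a3 (-0.18, SE 0.09, limma adjusted p = 0.306) led the lower side. Deletion mouse 4 was the highest for 4 of the 27 (14.8%), among them Mt3 and Slc39a14, beside 6.35% of all genes.

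Interleukin 6 and acute phase genes were listed because cytokines also induce Cebpd and the metallothioneins. Of 14 tested, 0 passed by limma and 3 had an unadjusted p under 0.05, beside 17.3% of all genes. Their median difference was 0.09. The oncostatin M receptor gene Osmr (0.27, SE 0.12, limma adjusted p = 0.234) and Bcl3 (0.33, SE 0.13, limma adjusted p = 0.200) were nearest on the higher side. Jak2 (-0.27, SE 0.11, limma adjusted p = 0.204) and Socs3 (-0.07, SE 0.09, limma adjusted p = 0.722) were on the lower side. Deletion mouse 4 was the highest for 5 of the 14 (35.7%), beside 6.35% of all genes. Pim1 read 8.18 in it and at most 7.16 elsewhere, Hp 8.33 and at most 7.83, and Osmr 8.01 and at most 7.38. The others were Il6ra (7.17 and at most 6.84) and Serpina3n (9.24 and at most 9.22). Socs3 in deletion mouse 4 was the lowest of the 16 at 5.04. Hp was also among the hepatocyte markers, and the part of liver RNA in these values was not tested. Among 23 relatives of the members (other Kruppel-like, TSC22, C/EBP, SGK, FKBP and ZBTB genes) deletion mouse 4 was the highest for 1 (4.35%). Among 17 clock genes it was the highest for 1 (5.88%), Per1, which is also in the list of other glucocorticoid targets. Among the relatives and the clock genes 0 passed by limma, with 2 and 1 at an unadjusted p under 0.05, beside 17.3% of all genes. The nearest relatives on the higher side were Klf13 (0.19, SE 0.10, limma adjusted p = 0.339) and Tsc22d1 (0.14, SE 0.08, limma adjusted p = 0.366). On the lower side they were Fkbp4 (-0.18, SE 0.07, limma adjusted p = 0.214), counted with the receptor chaperones as well, and Klf10 (-0.33, SE 0.15, limma adjusted p = 0.265). The nearest clock genes were Cry2 (0.23, SE 0.07, limma adjusted p = 0.124), Ciart (0.21, SE 0.13, limma adjusted p = 0.402), Rora (-0.14, SE 0.07, limma adjusted p = 0.303) and Hlf (-0.14, SE 0.07, limma adjusted p = 0.343).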

How the data were processed

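Each of the 16 arrays came with log2 values for its probe sets, deposited by the authors after RMA in oligo (per the submitters' processing notes, without version numbers). That the scale is log2 follows from their range, 0.33 to 13.84. Genome build and scan date: not given in the sources used here. The deposited arrays still differ somewhat in distribution, with 75th percentiles of 5.95 to 6.07, and no further normalization was applied in the main tests. Of 41345 probe sets, 23521 had 1 gene symbol, 1814 several and 16010 none. The filter on dim probe sets and limma 3.58.1 (R 4.3.3; lmFit, eBayes, group as the only term, Benjamini-Hochberg over 13592 genes) gave the differences. Exact permutation tests of single differences ran over all 12870 splits, two-sided. Correlations within a group used all 40320 pairings, and those over 16 mice 100000 permutations within groups, all two-sided. The limma step was tested on simulated data for this comparison with 13592 genes, where 73 of 100 genes changed by 0.5 log2 units and 100 of 100 changed by 1 were recovered, with 12 false calls. The numbers of mice limit the precision.

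The members and lists were chosen with earlier results of these data known. Named genes were the members, Foxo1, Foxo3, Foxo4, Alb, Dbp, Arntl and Per1, the 2 list genes with the smallest p in each direction per pathway list, and the 5 genes most like Fkbp5 and Mt2. Mt3, Pck1, Angptl4, Pim1, Hp, Il6ra, Serpina3n, Hif3a, Nfkbia, Lpin1, Pdk4 and Errfi1 were named after their values were seen. No mouse was left out of the main tests. Alternatives were the filter, the mean of probe sets, centring, quantile normalization, variance model, array weights, a replicate block, covariates, the threshold and leaving out mice. Same-numbered mice of the groups are not stated to be related, and their deviations correlated by -0.083 to 0.25, so numbers were not taken as pairs.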

Additional observations from a re-analysis of the deposited data

Results flagged for a closer look

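Values far from the rest of their group were looked for in 20 groups, the 10 members in controls and in deletion mice, by the gap to the nearest mouse as a share of the group's range, set against Dixon's 95% critical value. Chance flags about 1 in 20 groups. The 3 found all belong to deletion mouse 4, which was the highest deletion mouse. Sgk1 read 8.87 there against 8.31 in the next deletion mouse, Klf15 read 7.61 against 6.96, and Cebpd read 6.08 against 5.08. The gap took up 0.539, 0.595 and 0.732 of the range. These genes share a mouse and are not independent of each other.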

How the results depend on the processing

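The count of members past the threshold was 0 in every setting except the fit without deletion mouse 8, where it was 1 (Mt1), so that leaving out 1 mouse gave 0 to 1. The count over all genes, 248 (207 higher, 41 lower), moved to 137 without a filter, 104 with the hepatocyte markers, 139 with Dbp minus Arntl and 35 with the Schwann cell markers as a covariate, and 504 at an adjusted p under 0.10. When 1 mouse was left out it was 108 to 679. It was 679 without deletion mouse 8, 108 to 161 without control mouse 1, 2, 3, 5, 6 or 7 or deletion mouse 1, 2, 5, 6 or 7, and within 1.5 times of 248 otherwise. Centring the arrays gave 129 higher and 67 lower genes. It moved the median of all genes to -0.05.

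Chosen after the data were seen were leaving out the 6 mice with Alb above 10, which gave 7 genes, and leaving out deletion mice 4 and 6, which gave 75. The planned limit on Alb at the array median leaves 1 mouse per group and was not run. Mt1, Mt2, Klf15 and Cebpd kept their sign in the planned settings run for them (Cebpd did not pass the filter at the 75th percentile), but with the Schwann covariate Mt1 stood at 0.10, Mt2 at 0.13 and Cebpd at 0.025. Leaving out 1 mouse gave 0.0109 to 0.20 for Cebpd, 0.05 to 0.21 for Klf15, 0.29 to 0.58 for Mt1 and 0.34 to 0.81 for Mt2. Other differences, none past the threshold, changed sign. With the hepatocyte covariate Nr3c1 stood at 0.0005 and Fkbp5 at -0.0101. With the Schwann covariate they stood at 0.0099 and -0.12. With Dbp minus Arntl, Tsc22d3 stood at 0.0147, Sgk1 at 0.0016 and Zbtb16 at 0.0294. Without the mice with high Alb, Nr3c1 stood at 0.0003, Fkbp5 at -0.34, Klf15 at -0.12 and Cebpd at -0.0852. Tsc22d3 (-0.26, interval -0.44 to -0.07) and Klf9 (-0.18, interval -0.34 to -0.03) kept their sign there. Both intervals lay below 0, but neither gene passed (limma adjusted p = 0.298 and 0.362). Sgk1 stood at -0.20 and Zbtb16 at -0.0895, so all 7 targets were lower with deletion in that setting. Without deletion mice 4 and 6, Nr3c1 stood at 0.027 and Fkbp5 at -0.14. Leaving out 1 mouse gave -0.0253 to 0.0213 for Nr3c1, -0.12 to 0.20 for Fkbp5, -0.12 to 0.0272 for Tsc22d3, -0.10 to 0.0434 for Sgk1, -0.0779 to 0.0114 for Klf9 and -0.19 to 0.035 for Zbtb16. The cause of these changes was not tested.

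The correlation of Mt1 and Mt2 was 0.93 to 0.96 without any 1 mouse. It was 0.97 without the 6 mice with Alb above 10 (adjusted p = 0.155 with 10 mice) and 0.89 without deletion mice 4 and 6 (adjusted p = 0.0873). That of Fkbp5 and Tsc22d3 was 0.51 to 0.86 without any 1 mouse and lost its call without control mouse 7 (adjusted p = 0.0643) or without deletion mouse 2 (0.0506), 4 (0.400) or 5 (0.111). It was 0.83 after quantile normalization (adjusted p = 0.0505), -0.20 without the mice with high Alb and 0.55 without deletion mice 4 and 6. Pairs past the threshold numbered 13 of 45, and 9 after centring, 1 after quantile normalization, 15 with Dbp minus Arntl removed, 3 with a replicate block, 1 without deletion mouse 4 and 0 in each of the settings chosen after the data were seen. With array weights the group difference of Mt1 was 0.43 (interval 0.04 to 0.83, limma adjusted p = 0.215). That of Mt2 was 0.63 (-0.02 to 1.29, limma adjusted p = 0.281). A replicate block left 211 genes and 0 members past the threshold. In it the intervals of Mt1 (0.06 to 0.76, limma adjusted p = 0.199) and Mt2 (0.03 to 1.15, limma adjusted p = 0.246) lay above 0. With that block the pair Mt1 and Mt2 had r = 0.93 and Fkbp5 and Tsc22d3 r = 0.77 (exact permutation p adjusted 0.159). For 3 of the 8 numbers the best correlation was with the same number.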
